A study of Sus scrofa with 24 samples.

Results

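Gene expression in circulating mononuclear cells was compared between pigs on an atherogenic diet with a resveratrol-enriched grape extract (AD-GE-RES) and pigs on standard chow (CT). The comparison took the 8 arrays whose diet labels were AD-GE-RES or CT, out of 24 arrays in 6 diet groups. Each group held 4 animals, 2 females and 2 males, and each array held the RNA of 1 animal. The CT animals ate commercial chow for 4 months. The AD-GE-RES animals ate for the same time a diet that held coconut oil at 10%, beef tallow at 5.5% and cholic acid at 1%, and with it 1 g of grape extract per 70 kg of body weight, which supplied 18 mg of resveratrol. Fat, cholic acid, extract and resveratrol therefore all differed between the groups, and their shares in any difference cannot be told apart here. The labels give no genotype, breed or age. The other 16 animals were fed the atherogenic diet alone (AD), with plain grape extract (AD-GE) or with resveratrol (AD-RES), or chow with the enriched extract (CT-GE-RES).

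Mononuclear cells of the blood are mainly lymphocytes and monocytes. Their surface receptors for chemokines and lipids steer them between blood, lymphoid organs and inflamed vessel walls, and monocytes that enter the arterial wall and take up cholesterol become the foam cells of atheroma. Toll-like receptors and interferons tune their inflammatory state. Resveratrol is a stilbene of grape skin, studied for anti-inflammatory effects and for actions on sirtuin, AMPK and NRF2 pathways.

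Values are log2 intensities per probe set, as 1 array reports them, and a difference is AD-GE-RES minus CT, so that a negative value is lower in AD-GE-RES. Animals are numbered 1 to 4 in each group, 1 and 2 being females and 3 and 4 males. Levels of different genes were not compared, because probe sets differ in how brightly they read. Markers of the labelled cell types were measured: over the 8 arrays CD3E of T cells read 9.51 to 10.79, CD79B of B cells 8.40 to 9.44, GNLY of cytotoxic cells 11.44 to 12.42 and CD163 of monocytes 8.23 to 10.12. Other probe sets read lower, CD3D at 6.74 to 9.85, CD14 of monocytes at 4.31 to 7.66 and CD4 at 4.09 to 5.28. These are bulk samples, so fewer cells of a type and less RNA per cell cannot be told apart.

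Median intensities ran from 38.6 to 41.2 over the 24 arrays, which gives no sign of unequal scaling. The arrays did differ in RNA: the 3'/5' ratio, the log2 signal of the 3' end over the 5' end of 3 control transcripts, is high where RNA is broken or copied short. It was 1.64, 3.33, 3.24 and 4.39 in CT and 3.40, 4.08, 1.67 and 1.62 in AD-GE-RES. The group means were 3.15 ± 1.13 (SD, n = 4) and 2.69 ± 1.24, a difference of −0.454 with an exact two-sided permutation p of 0.629 (the smallest p that 70 regroupings allow is 0.0286). Within the sexes the ratio ran opposite ways: it was 1.26 higher in AD-GE-RES than in CT females and differed by −2.16 in males. CT 4 was least like the rest, with a mean correlation of 0.957 to the other arrays, and AD-GE-RES 1 was next (0.968). The others lay between 0.974 and 0.982.

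**Figure D1:**
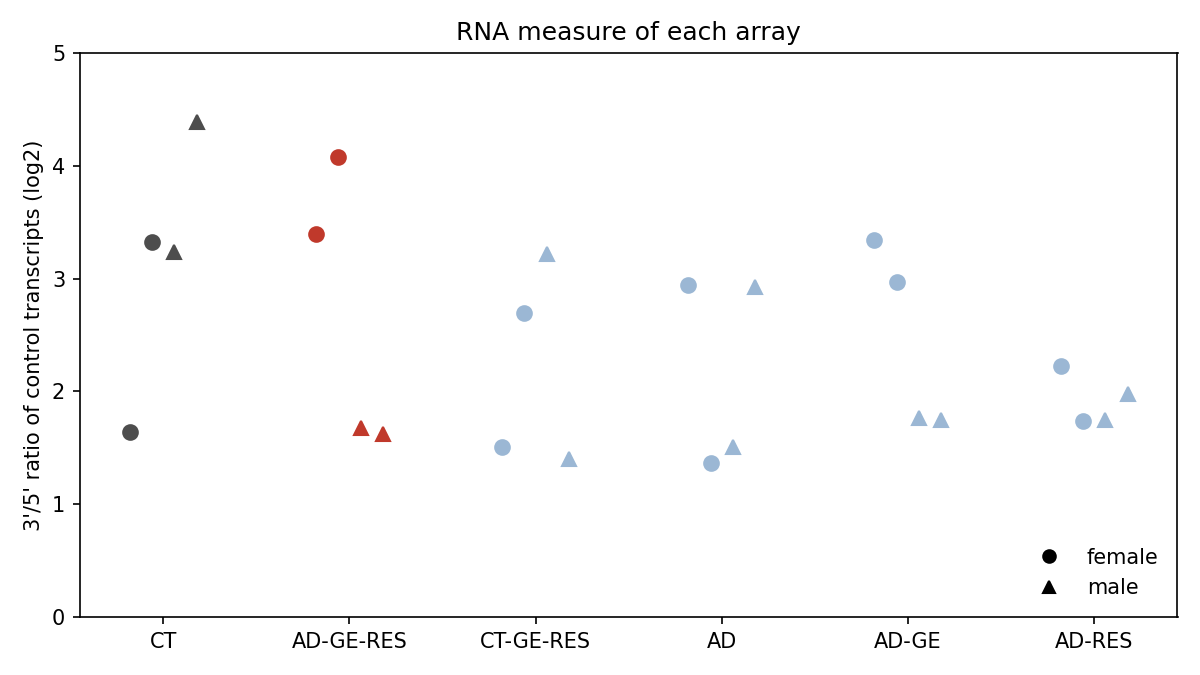
The log2 3'/5' ratio (vertical axis) is plotted for each of the 24 arrays by diet group; circles are females and triangles males, with CT in grey, AD-GE-RES in red and the other groups in blue. In CT the highest point is a male (4.39), while in AD-GE-RES both males (1.67 and 1.62) lie below both females (3.40 and 4.08).

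Over both sexes, no gene passed the test. Of 17999 probe sets, 0 were called (0%) at an adjusted p under 0.05 with limma, and the smallest adjusted p was 0.939. At an unadjusted p under 0.05 there were 855 (4.75%), 509 higher and 346 lower in AD-GE-RES. The 4 values of one group lay wholly above the 4 of the other for 276 probe sets (1.53%), 166 higher and 110 lower. The 95% interval of the difference lay within a 2-fold change either way for 93.0% of probe sets. Intervals and SEs here use a spread shared by all 24 arrays. They are too narrow for genes that vary more in CT and AD-GE-RES than elsewhere, and too wide for those that vary less. The T cell list mean, for example, had an SD of 0.52 in CT and 0.57 in AD-GE-RES, and 0.21 to 0.26 in the other groups. With only the arrays compared the count of 855 was 413. Among 6033 genes, each read by its brightest probe set, 185 were higher (3.07%) and 122 lower (2.02%) at an unadjusted p under 0.05, and 3147 (52.2%) stood above 0. The count of 855 moved by more than 1.5 times when single arrays were left out: it was 1349 without CT 1, 1367 without CT 2, 472 without CT 4 and 1889 without AD-GE-RES 1. The values that follow describe the genes with the smallest p in each direction, and every one of them has an adjusted p of 0.939 or more in this comparison.

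Among the higher genes were S1PR1 and CXCR4, receptors that guide lymphocytes between tissue and blood. S1PR1, the sphingosine 1-phosphate receptor that lets lymphocytes leave lymphoid organs, read 10.92, 10.99, 10.85 and 10.53 in CT and 11.38, 11.18, 11.69 and 11.41 in AD-GE-RES. All 4 AD-GE-RES animals lay above all 4 CT animals, and the difference was 0.59 (SE 0.15, 1.51-fold, 95% interval 0.28 to 0.90). Its other probe sets, at 0.69 and 0.76, did not overlap between the groups either. CXCR4, the receptor of the chemokine CXCL12 that retains cells in bone marrow and lymphoid tissue, read 10.74, 11.05, 11.06 and 10.79 in CT and 11.93, 10.93, 11.90 and 12.05 in AD-GE-RES. The other AD-GE-RES animals were well above CT, while AD-GE-RES 2 was among the CT values. The difference was 0.79 (SE 0.21, 1.73-fold, 95% interval 0.35 to 1.23). In the other arrays S1PR1 ran from 10.96 to 11.99 (median 11.24) and CXCR4 from 10.44 to 12.48 (median 11.33), so all 4 CT animals lay below the median for both. The whole list of 17 adhesion and trafficking genes had 7 higher and 10 lower, with a median of −0.07 against 0.0076 for all genes.

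MYLIP, an E3 ubiquitin ligase that marks the LDL receptor for degradation and is a target of the sterol-sensing liver X receptors, read 9.16, 9.80, 10.10 and 9.98 in CT and 10.81, 10.20, 10.59 and 10.63 in AD-GE-RES. The groups did not overlap, and the difference was 0.80 (SE 0.26, 1.74-fold, 95% interval 0.26 to 1.33). NPC1, which exports cholesterol from late endosomes, was at −0.34 (SE 0.16) and was lower mainly in males (−0.63 against −0.05 in females). Of the 17 lipid efflux and storage genes 9 were higher and 8 lower, with a median of 0.02. FADS1, the delta-5 desaturase of polyunsaturated fatty acid synthesis, read 4.37, 4.65, 4.57 and 4.49 in CT and 4.03, 3.93, 4.23 and 3.94 in AD-GE-RES. Every AD-GE-RES value was below every CT value, at −0.49 (SE 0.14, 1.40-fold, 95% interval −0.79 to −0.19), on a dim probe set. SCD, the desaturase that makes oleic acid, differed by −0.38 (SE 0.14) with overlap, and SQLE of cholesterol synthesis by −0.47 (SE 0.23). The 8 fatty acid synthesis genes split 3 higher and 5 lower (median −0.07), and the 14 sterol synthesis genes 4 and 10 (median −0.09).

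The other genes higher in AD-GE-RES were of the nucleus, the mitochondrion and protein folding. MRPL16, a protein of the large mitochondrial ribosomal subunit, read 7.59, 7.55, 7.39 and 7.10 in CT and 8.15, 7.77, 8.17 and 7.99 in AD-GE-RES, without overlap (0.61, SE 0.14, 95% interval 0.33 to 0.90). HSF2, a heat shock transcription factor, read 6.87, 7.10, 6.76 and 6.20 in CT and 7.24, 7.33, 7.32 and 7.38 in AD-GE-RES. The AD-GE-RES animals were tightly grouped above a spread CT group (0.58, SE 0.17, 95% interval 0.22 to 0.94). ZZZ3, a subunit of the ATAC histone acetyltransferase complex, stood at 0.46 (SE 0.13), TRA2A, a splicing regulator, at 0.36 (SE 0.11), UIMC1, a ubiquitin-binding partner of the BRCA1-A complex, at 0.32 (SE 0.10), and AKAP8, a nuclear anchor of protein kinase A, at 0.45 (SE 0.14), all without overlap. RORA, a nuclear receptor of lymphoid and clock biology (0.49, SE 0.15), PPTC7, a mitochondrial phosphatase (0.53, SE 0.16), MSL1, a scaffold of a histone acetyltransferase complex (0.32, SE 0.10), and RAB3IP, an activator of RAB8 (0.67, SE 0.21), were higher on average with overlapping animals. RAB3IP did not differ evenly in the sexes: its difference was 1.35 in males and 0.0011 in females. Of these 12 genes with the smallest p, 7 did not overlap between the groups, and the differences ran from 0.32 to 0.79. Choosing genes by a small p favours such separation, which 1.53% of all probe sets showed.

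**Figure D2:**
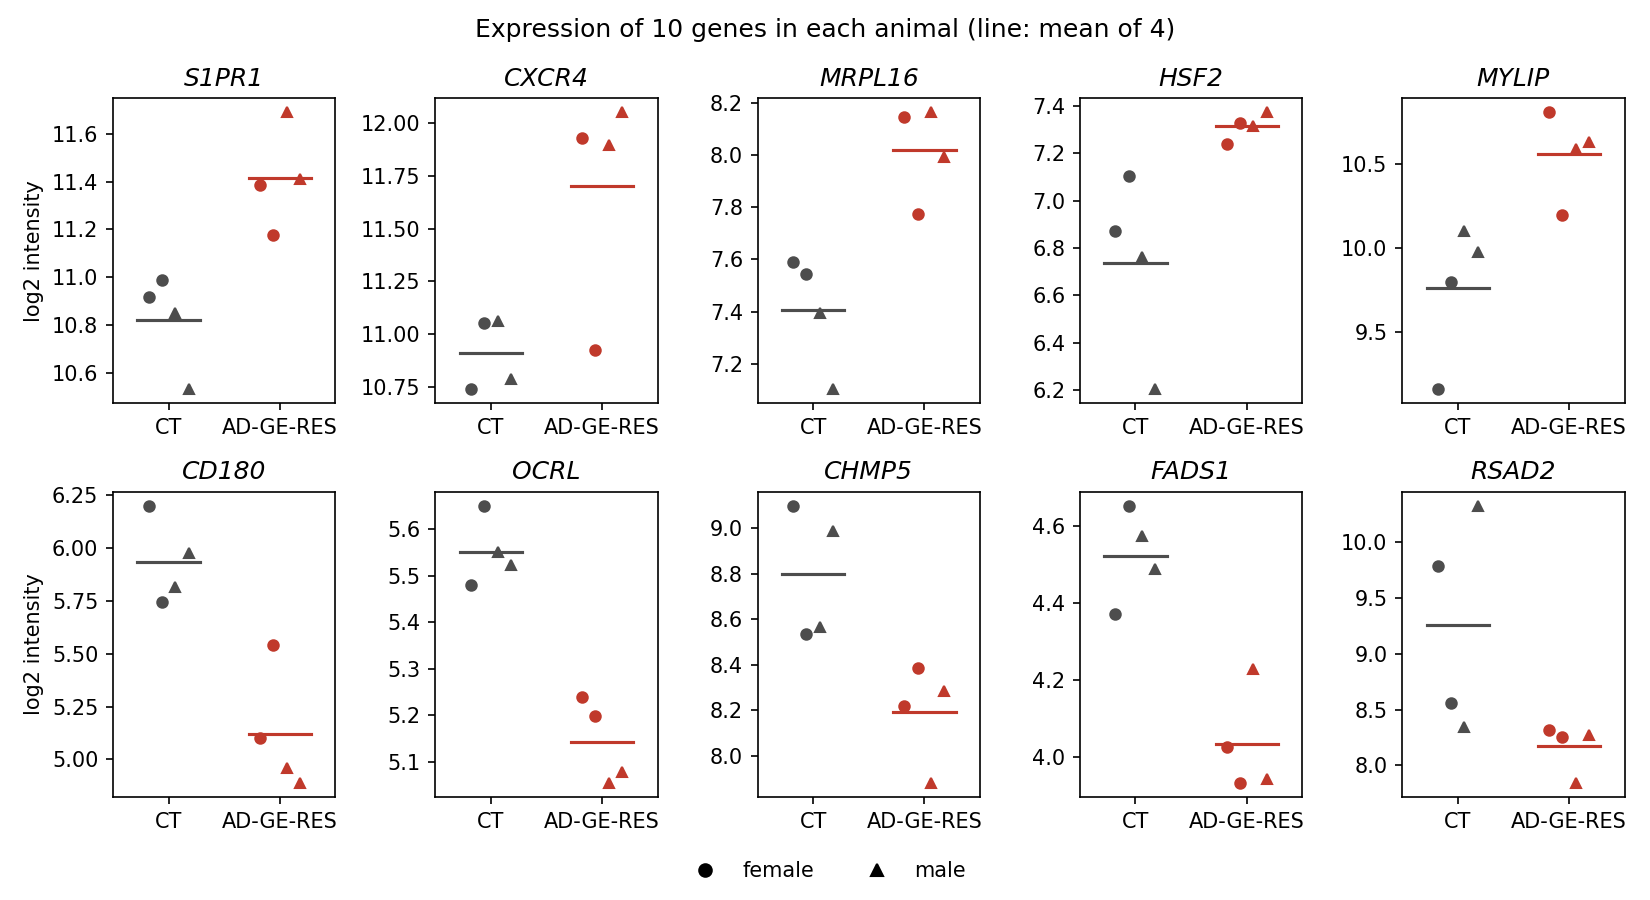
Log2 intensity (vertical axes, scaled to each gene) of 10 genes in the 4 CT (grey) and 4 AD-GE-RES (red) animals; circles are females, triangles males and lines the group means. All pairs of groups separate except CXCR4, where AD-GE-RES 2 reads 10.93.

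Among the genes lower in AD-GE-RES, CD180 had the smallest p. It encodes a Toll-like receptor homologue of B cells and myeloid cells that pairs with LY86 and restrains TLR4. CD180 read 6.20, 5.74, 5.81 and 5.97 in CT and 5.10, 5.54, 4.96 and 4.89 in AD-GE-RES. No animal overlapped, and the difference was −0.81 (SE 0.18, 1.75-fold, 95% interval −1.19 to −0.43). In the other 16 arrays CD180 ran from 4.83 to 5.97 with a median of 5.46, so CT 1 lay above all of them and CT 4 level with the highest. LY86 itself, named after its values were seen, differed by −0.21 (SE 0.41) with a wide spread in CT (10.54, 9.92, 9.43 and 7.61). TLR4, the lipopolysaccharide receptor, differed by −0.47 (SE 0.27) and IRAK1, a kinase downstream of it, by 0.36 (SE 0.13); other probe sets of TLR4 lay between −0.09 and 0.03, and another of IRAK1 at −0.13. Of 14 Toll-like receptor signalling genes 3 were higher and 11 lower, with a median of −0.14 (−0.39 without CT 4 and AD-GE-RES 1).

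Several of the lower genes serve endosomes and membrane traffic. OCRL, an inositol phosphatase of endosomes and the Golgi, read 5.48, 5.65, 5.55 and 5.52 in CT and 5.24, 5.20, 5.05 and 5.08 in AD-GE-RES. The groups were compact and apart, at −0.41 (SE 0.10, 1.33-fold, 95% interval −0.62 to −0.20), but a dimmer probe set of OCRL was at 0.07. CHMP5, of the ESCRT-III complex that forms multivesicular bodies, read 9.10, 8.54, 8.57 and 8.99 in CT and 8.22, 8.39, 7.88 and 8.29 in AD-GE-RES. It also showed no overlap (−0.61, SE 0.15, 95% interval −0.92 to −0.29). FKBP15, a protein of early endosomes, was at −0.40 (SE 0.12) without overlap, with its other probe sets at −0.20 and −0.23. ZFYVE16, an endosomal scaffold protein, was at −0.36 (SE 0.12), with AD-GE-RES 2 at 8.23 above the CT animals. The vesicle traffic list did not lean one way: 33 of its 73 genes were higher and 40 lower (median −0.0087), with 3 at p under 0.05 in each direction. Of 26 autophagy and lysosome genes 7 were higher and 19 lower, with a median of −0.09 (−0.22 without CT 4 and AD-GE-RES 1).

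Other lower genes lay in signalling and translation. ACVR1B, a type I activin receptor, read 7.62, 7.33, 7.49 and 7.30 in CT and 7.10, 6.96, 6.31 and 6.48 in AD-GE-RES. There was no overlap, and the males were further apart (−0.996) than the females (−0.45); the average was −0.72 (SE 0.20, 95% interval −1.14 to −0.31). The 9 measured genes of the TGF-beta list split 5 higher and 4 lower (median 0.07). EIF2S1, the alpha subunit of initiation factor eIF2, stood at −0.40 (SE 0.13) and ARMT1, an acidic residue methyltransferase, at −0.42 (SE 0.14), both with overlap. Of the 12 lower genes with the smallest p, 9 did not overlap, which their choice by p favours (1.53% of all probe sets did not).

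Among the lower genes were also WARS, KYNU and RSAD2. WARS, the tryptophanyl-tRNA synthetase that interferon induces, read 8.58, 8.60, 8.39 and 8.57 in CT and 8.31, 8.25, 8.02 and 7.96 in AD-GE-RES, without overlap (−0.40, SE 0.11, 95% interval −0.63 to −0.16). KYNU, the kynureninase of tryptophan breakdown, read 8.19, 7.52, 7.48 and 7.86 in CT and 7.40, 7.31, 6.88 and 7.26 in AD-GE-RES, also without overlap (−0.55, SE 0.19, 95% interval −0.93 to −0.16). Other probe sets of both were on the same side, at −0.35 and −0.26 for WARS and −0.25 for KYNU. RSAD2 (viperin), an antiviral enzyme, read 9.78, 8.56, 8.35 and 10.32 in CT and 8.32, 8.26, 7.84 and 8.27 in AD-GE-RES. The groups did not overlap by a narrow margin, with CT 2 and CT 3 close to the AD-GE-RES animals and CT 1 and CT 4 far above (−1.08, SE 0.36, 2.11-fold, 95% interval −1.82 to −0.34). IRF7, the factor that amplifies interferon production, was at −0.85 (SE 0.33) and IFIT3 at −0.94 (SE 0.44), with CT 1 and CT 4 again the highest.

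All 22 measured interferon response genes stood lower in AD-GE-RES, with a median of −0.59 beside 0.0076 for all genes, and 3 of them had an unadjusted p under 0.05; 0 were called. The list mean, taken relative to all 24 arrays, was 0.96, −0.18, −0.30 and 0.91 in CT and 0.03, −0.44, −0.22 and −0.28 in AD-GE-RES. CT 1 and CT 4 were high, and CT 2 and CT 3 lay among the AD-GE-RES animals. The median was −0.42 in males and −0.43 in females. Adding the 3'/5' ratio to the model gave −0.56. The median was −0.23 without CT 1 (20 of 22 genes lower), −0.39 without CT 4, −0.58 without CT 4 and AD-GE-RES 1 (19 lower) and −0.23 with 4 cell list means as covariates (20 lower). In the other chow group, CT-GE-RES, the list mean was 0.08 ± 0.26 (SD, n = 4), between AD-GE-RES (−0.23 ± 0.20) and CT (0.35 ± 0.68). The other atherogenic groups did not share 1 level. Their list mean was 0.22 ± 0.24 in AD, 0.10 ± 0.71 in AD-RES and −0.52 ± 0.34 in AD-GE.

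Medians of several cell type lists changed in size or sign when arrays that stood apart were left out. All 14 T cell genes and all 7 NK and cytotoxic genes were higher in AD-GE-RES, with medians of 0.39 and 0.25, and none reached an unadjusted p of 0.05. Without CT 4 the T cell median was 0.11 (13 of 14 higher) and the NK median −0.02 (3 of 7 higher), and without both CT 4 and AD-GE-RES 1 they were 0.33 (14 higher) and 0.0015 (4 higher). GATA3, a T cell transcription factor, stood at 0.41 (SE 0.21) and IL7R, the interleukin 7 receptor, at 0.59 (SE 0.34). The T cell mean was 0.11, −0.32, −0.38 and −1.14 in CT and −0.64, −0.40, 0.51 and 0.39 in AD-GE-RES, so CT 4 was the lowest and the AD-GE-RES males the highest. Of 18 monocyte genes 2 were higher and 16 lower (median −0.31). AD-GE-RES 1 had the highest monocyte mean of the 8 arrays (0.59) and the other AD-GE-RES animals lay between −0.27 and −0.18; without AD-GE-RES 1 and CT 4 the median was −0.60, without AD-GE-RES 1 alone −0.53, and without CT 1 or AD-GE-RES 3 it was −0.18 or −0.20. CEBPD, a transcription factor of monocytes, was at −0.38 (SE 0.17), with another bright probe set at 0.24. The list of 5 B cell genes split 2 and 3 (median −0.14, and 0.23 without CT 4 and AD-GE-RES 1), and the 3 dendritic genes 2 and 1, with CD83, a marker of mature dendritic cells, at 11.55 in AD-GE-RES 1 and 8.07 to 8.65 in the other 7 animals. The inflammatory chemokine CXCL8 was highest in the same animal (8.97, against 4.05 to 7.23).

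Markers of neutrophils, red cells and platelets, which are not mononuclear cells, were also unequal. All 9 neutrophil genes were lower in AD-GE-RES (median −0.78), but their mean was 1.91 in CT 4 and −0.44 to 0.37 in the other 7 animals. Without CT 4 and AD-GE-RES 1 the median was −0.18. Of 10 erythroid genes 9 were lower (median −0.65), with CT 4 at 1.66 and the others between −0.47 and 0.23, and the median without those arrays was −0.07. HBE1, a globin gene, read 7.27, 6.19, 8.60 and 9.68 in CT and 7.16, 5.76, 6.34 and 6.74 in AD-GE-RES. Of 11 platelet genes 10 were lower (median −0.53), with CT 3 at 1.51. Without CT 4 and AD-GE-RES 1 all 11 were lower (median −0.84). The platelet median was −1.07 in males and 0.10 in females. P2RY12, the platelet ADP receptor, was at −0.89 (SE 0.33) and CAVIN2 at −1.35 (SE 0.70). With 4 cell list means as covariates the count of 855 probe sets at an unadjusted p under 0.05 was 595. The part of these cells in the differences of single genes was not tested.

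**Figure D3:**
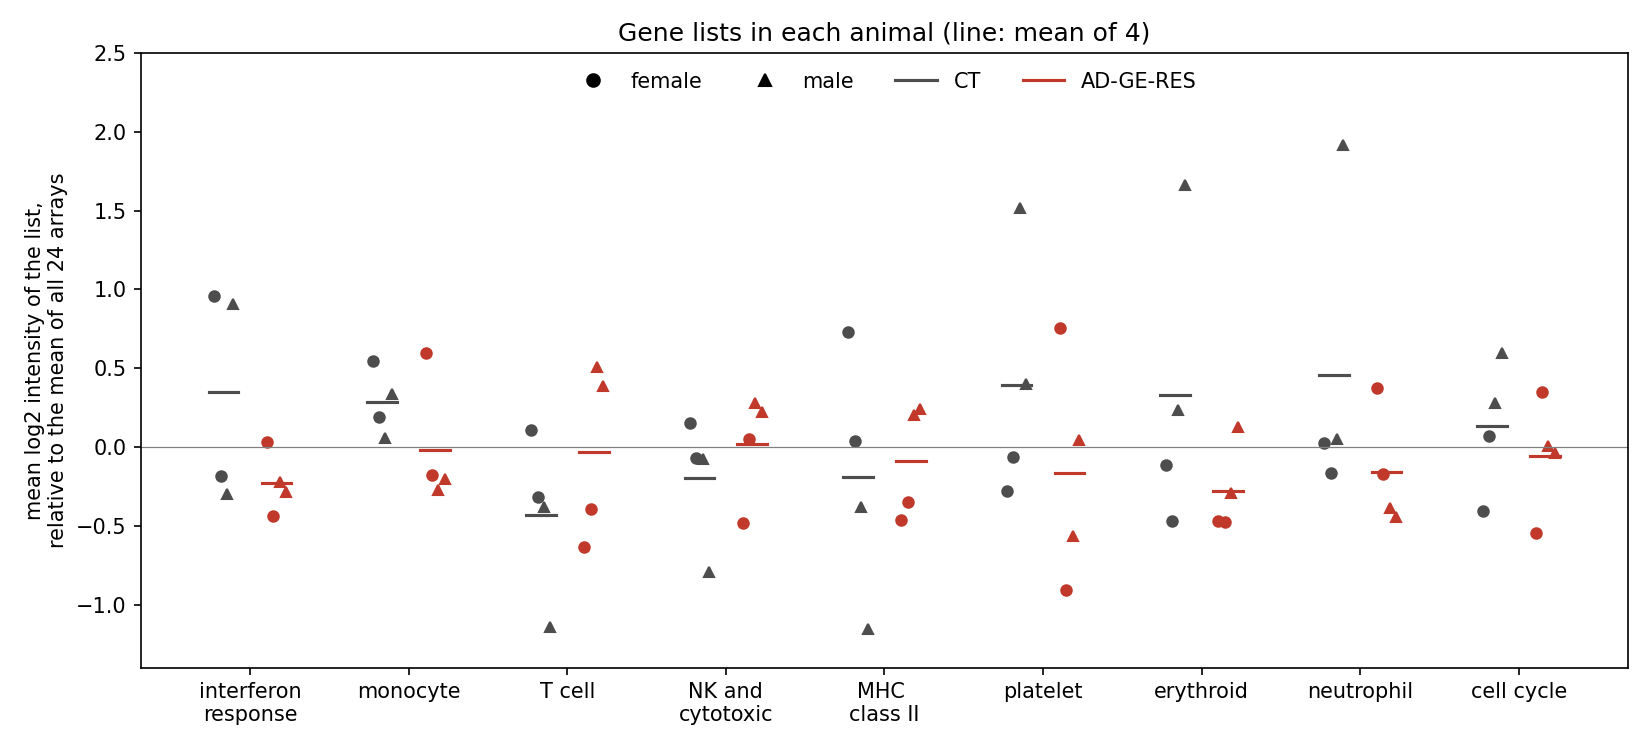
Mean log2 intensity of 9 gene lists relative to the mean of all 24 arrays (vertical axis) in the 4 CT (grey) and 4 AD-GE-RES (red) animals; circles are females, triangles males and lines group means. The neutrophil and erythroid means of CT rest on CT 4 (1.91 and 1.66), and in the T cell list the AD-GE-RES males (0.51 and 0.39) lie above both females (−0.64 and −0.40).

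Stress and redox genes gave small differences. Of 26 NRF2 and antioxidant genes 6 were higher and 20 lower (median −0.11). GSR, the glutathione reductase, read 9.22, 9.09, 9.08 and 9.25 in CT and 8.83, 9.01, 8.66 and 8.98 in AD-GE-RES, lower without overlap (−0.29, SE 0.12), with dimmer probe sets at 0.06 and 0.000065. SOD1, the cytosolic superoxide dismutase, was at 0.30 (SE 0.13). NAMPT, the enzyme that salvages NAD for sirtuins, read 8.47, 8.50, 8.51 and 8.71 in CT and 8.39, 8.36, 7.60 and 8.30 in AD-GE-RES. It was lower without overlap (−0.38, SE 0.13), with AD-GE-RES 3 far below the others; the sirtuin, AMPK and FOXO list as a whole had 9 higher and 7 lower (median 0.03). Of 20 heat shock genes 13 were higher and 7 lower (median 0.06), DNAJB6, an HSP70 co-chaperone, among them at 0.27 (SE 0.12) without overlap. Other probe sets of DNAJB6 overlapped, at 0.20, 0.61 and −0.02. Of 12 endoplasmic reticulum stress genes 9 were higher (median 0.14), including the chaperone HSPA5 (0.26, SE 0.12) and its partner DNAJB9 (0.49, SE 0.23). Dimmer probe sets of DNAJB9 were at 0.34 and −0.03.

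Early response genes went both ways. RGS1, a brake on chemokine receptor signalling, was at 1.56 (SE 0.64), SOCS1, a brake on cytokine signalling, at 0.45 (SE 0.23) and EGR1, a growth factor response gene, at −1.36 (SE 0.62). Dimmer probe sets lay at 0.70 for RGS1, 0.05 and 0.27 for SOCS1 and −1.25 and −0.88 for EGR1. EGR1 read 10.92, 10.54, 10.09 and 9.60 in CT and 9.60, 8.89, 7.03 and 10.18 in AD-GE-RES, with AD-GE-RES 3 far below the rest. NFKBIA, the inhibitor of NF-kappa-B, was at 0.53 (SE 0.24) and highest in AD-GE-RES 1. The immediate early list had 16 higher and 8 lower (median 0.07), the glucocorticoid response list 8 and 8 (median −0.0064), the inflammatory list 10 and 12 (median −0.03) and a panel of 22 lipid and inflammation genes 13 and 9 (median 0.08). Without CT 4 and AD-GE-RES 1 these became 7 and 17 (−0.22), 5 and 11 (−0.23), 6 and 16 (−0.17) and 11 and 11 (−0.02). CASP1, which activates interleukin 1 beta, was at −0.72 (SE 0.33) and CFLAR, an inhibitor of caspase 8, at 0.35 (SE 0.16), in an apoptosis list of 7 higher and 10 lower (median −0.04).

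Machinery genes with many measured members shifted by little. Of 62 ribosomal protein genes 51 were higher and 11 lower (median 0.07), and of 55 splicing genes 46 and 9 (median 0.12). SRSF5, a splicing factor, stood at 0.40 (SE 0.13). The splicing median was 0.20 in males and −0.01 in females. Counts for higher and lower were 39 and 19 for the mitochondrial ribosome (median 0.06), 25 and 8 for the proteasome (0.06), 35 and 29 for oxidative phosphorylation (0.0044), 21 and 20 for ubiquitin conjugation (0.0059), 15 and 7 for fatty acid oxidation (0.10) and 6 and 10 for DNA repair (−0.02). The proteasome median was 0.21 in males and −0.12 in females, and that of the mitochondrial ribosome 0.16 and −0.06. For ribosomal proteins the sexes had the same sign (0.08 and 0.04). Of 23 cell cycle genes 21 were lower (median −0.25), and without CT 4 and AD-GE-RES 1 the median turned to 0.16. MHC class I genes had 12 higher and 1 lower (median 0.10), with PDIA3, a chaperone of peptide loading, at 0.36 (SE 0.14). Their median was 0.38 in males and −0.07 in females. MHC class II genes had 7 and 3 (median 0.09), and a median of −0.08 without CT 4 and AD-GE-RES 1. Without CT 4 and AD-GE-RES 1 the median turned sign for 9 of the 37 lists: B cell, dendritic, MHC class II, immediate early, lipid efflux and storage (−0.23), sirtuin, AMPK and FOXO, cell cycle, DNA repair (0.04) and the panel. Over the 37 lists the median and the mean differed in sign for 6: glucocorticoid response, inflammatory, lipid efflux and storage, adhesion and trafficking, TGF-beta and ubiquitin conjugation.

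The genes were then looked up in animals that gave no array to this comparison: AD, AD-GE and AD-RES (12 animals) against CT-GE-RES (4). This is a different comparison, not a repeat. Fat and cholic acid were again on the atherogenic side, but the enriched extract was on the chow side. The AD animals received neither extract nor resveratrol. The mean 3'/5' ratio was 2.19 and 2.20 there. That contrast called 0 probe sets (0%) with limma at an adjusted p under 0.05, with a smallest adjusted p of 0.0502, and 2675 (14.9%) at an unadjusted p under 0.05. All 12 higher and all 12 lower genes had the same sign in it, and 4 and 5 of them had an unadjusted p under 0.05 there. Of all 6033 genes 2138 were higher and 3895 lower there. Both contrasts came from 1 fit with a shared estimate of the spread, so genes of low spread were favoured to reach a small p in both. CXCR4 was at 0.69 (SE 0.17), S1PR1 at 0.28 (SE 0.12), TRA2A at 0.29 (SE 0.09) and ZZZ3 at 0.24 (SE 0.11). On the lower side FKBP15 was at −0.42 (SE 0.10), CD180 at −0.41 (SE 0.15), FADS1 at −0.36 (SE 0.12), EIF2S1 at −0.34 (SE 0.11) and ARMT1 at −0.31 (SE 0.11). RORA (0.0044, SE 0.13), OCRL (−0.02, SE 0.08) and ACVR1B (−0.03, SE 0.16) were near 0. Of the 855 probe sets at an unadjusted p under 0.05, 576 (67.4%) had the same sign in those animals, beside 50.9% of all probe sets. The interferon list had 16 of 22 genes lower there (median −0.20), where 3895 of all 6033 genes were lower, and the T cell list had 9 of 14 lower (median −0.17). Only AD-GE (−0.52) had an interferon list mean below that of CT-GE-RES (0.08), with AD at 0.22 and AD-RES at 0.10. MHC class I genes had 1 higher and 12 lower there (median −0.09), and proteasome genes 0 and 33 (median −0.20).

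**Figure D4:**
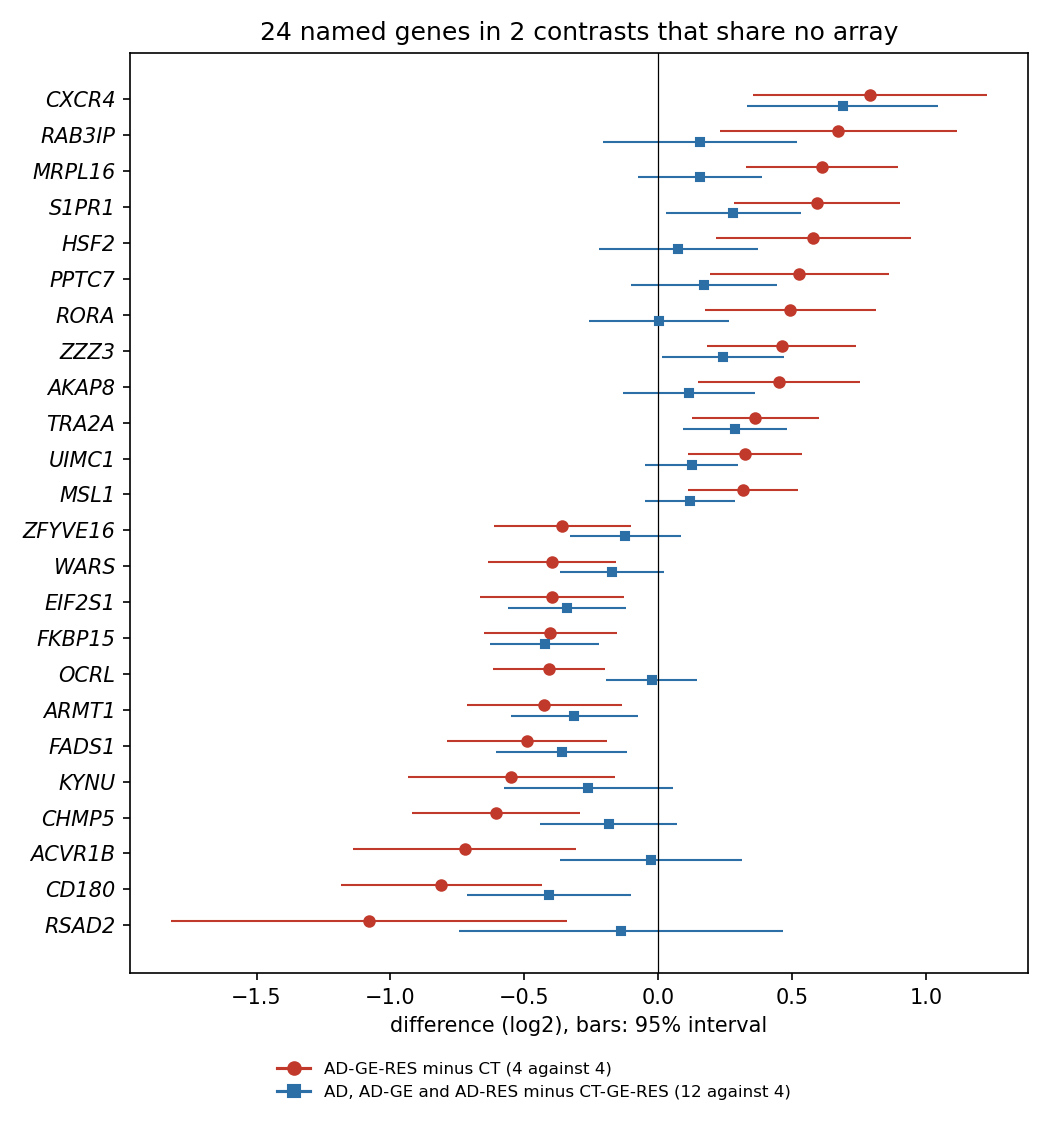
Difference on the log2 scale (horizontal axis, bars the 95% interval) of the 24 genes with the smallest p in AD-GE-RES minus CT (red circles) and of the same genes in AD, AD-GE and AD-RES minus CT-GE-RES (blue squares), which share no array. The enriched extract was given on the atherogenic side in the first contrast and on the chow side in the second. The signs match for all 24 genes, and CXCR4 (0.79 and 0.69) and FKBP15 (−0.40 and −0.42) have nearly equal values.

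Males and females differed in the comparison. In males, 2 against 2, limma called 581 probe sets (3.23%), 406 higher and 175 lower in AD-GE-RES. In females it called 1 (0.00556%), KMO. The test of the difference itself, males minus females, called 361 (2.01%), 289 above 0 and 72 below, with a smallest adjusted p of 0.0206. For 358 of the 361 the sign was opposite in the sexes. The 3'/5' ratio also ran opposite ways in the sexes. With it as a covariate the test called 0 for the difference between the sexes. It then called 2 in males (JAM3, a junctional adhesion molecule, and a probe set without a symbol) and 1 in females (KMO). Among males the ratio split with diet (3.24 and 4.39 in CT, 1.67 and 1.62 in AD-GE-RES), so that fit cannot tell ratio from diet well. A call lost with the ratio therefore does not show that the difference shrank. Of the genes called below 0, the difference between the sexes was as large or larger with the ratio for CPT1A (−2.22, from −1.75), SLC25A20 (−1.91, from −1.56) and JAM3 (−3.25, from −2.14), and smaller for PSAT1 (−1.86, from −2.15). Of those above 0 it was smaller for KMO (1.55, from 2.03), LY86 (1.60, from 2.74), CD2 (1.41, from 4.16) and SLA-DRA (1.35, from 4.30). In the 16 arrays of the other groups the slope on the ratio was below 0 for 263 of the 289 probe sets above 0 (91.0%) and for 36 of the 72 below 0 (50%), beside 43.3% of all. That fit held diet group but no sex term. In AD-GE the ratio split by sex (3.34 and 2.97 in females, 1.77 and 1.75 in males), so the slopes can also carry sex. The part of the ratio in these calls was not tested. The count of 361 also rested on single arrays: it was 1 without CT 1, 762 without CT 2, 1928 without CT 3, 0 without CT 4, 1 without AD-GE-RES 1, 1387 without AD-GE-RES 2, 0 without AD-GE-RES 3 and 37 without AD-GE-RES 4. In males the count was 2567 without CT 3, 2 without CT 4, 1 without AD-GE-RES 3 and 0 without AD-GE-RES 4. In females it was 2 without CT 1, 0 without CT 2 or AD-GE-RES 1 and 207 without AD-GE-RES 2.

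Genes of T cells and antigen presentation were among the calls above 0. CD2, an adhesion receptor of T and NK cells, read 10.22, 8.89, 8.45 and 6.47 in CT and 8.11, 8.09, 10.19 and 10.14 in AD-GE-RES. It rose by 2.71 in males (SE 0.59, adjusted p = 0.0316) and stood at −1.45 in females (SE 0.59), a difference between the sexes of 4.16. SLA-DRA, the alpha chain of the MHC class II molecule DR, read 12.43, 10.84, 10.26 and 8.43 in CT and 10.02, 9.86, 11.91 and 11.99 in AD-GE-RES. It rose by 2.61 in males (SE 0.62, adjusted p = 0.0382) and stood at −1.70 in females. In both genes the arrays with the lowest 3'/5' ratio, CT 1 and the AD-GE-RES males, read highest, and CT 4, with the highest ratio, read lowest. With the ratio in the model the male difference was 0.97 for CD2 and 0.74 for SLA-DRA, neither called. LY86 differed by 2.74 between the sexes (1.16 in males, −1.58 in females). The medians of the T cell, MHC class II and NK lists were 1.06, 0.84 and 0.72 in males and −0.31, −0.69 and −0.25 in females; 1 of 14, 4 of 10 and 1 of 7 genes of these lists were called for the difference, beside 114 of all 6033 genes.

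A few metabolic genes set apart 1 sex of CT. KMO, the kynurenine 3-monooxygenase of tryptophan breakdown, read 8.45 and 8.87 in the CT females, 6.73 and 6.66 in the CT males and 6.39, 6.77, 6.61 and 6.68 in AD-GE-RES. Only the CT females were high among these 8, and in females KMO fell by 2.08 (SE 0.24, adjusted p = 0.00395; 0.0243 with the ratio in the model). Females of the other groups read 5.95 to 7.19, but males of the other groups read 6.41 to 8.50. PSAT1, an aminotransferase of serine synthesis, read 4.88 and 4.94 in the CT females, 7.04 and 7.03 in the CT males and 5.50, 5.15, 5.24 and 5.36 in AD-GE-RES. The CT males stood above all 16 arrays of the other groups (4.94 to 6.04), and in males PSAT1 fell by 1.73 (SE 0.22, adjusted p = 0.00968; 0.0769 with the ratio). CPT1A, which loads long-chain fatty acids onto carnitine for oxidation, read 8.70 and 8.75 in the CT females, 10.22 and 10.11 in the CT males and 10.03, 10.24, 9.91 and 9.73 in AD-GE-RES. The CT females were below every other array of the series (9.12 to 10.46 in the other groups), and the difference was 1.41 in females (SE 0.27) and −0.34 in males, with an adjusted p of 0.0380 for the sexes. SLC25A20, the carnitine carrier of the mitochondrion, followed the same order, at 5.83 and 5.80 in the CT females, 6.81 and 7.21 in the CT males and 6.40 to 6.84 in AD-GE-RES.

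**Figure D5:**
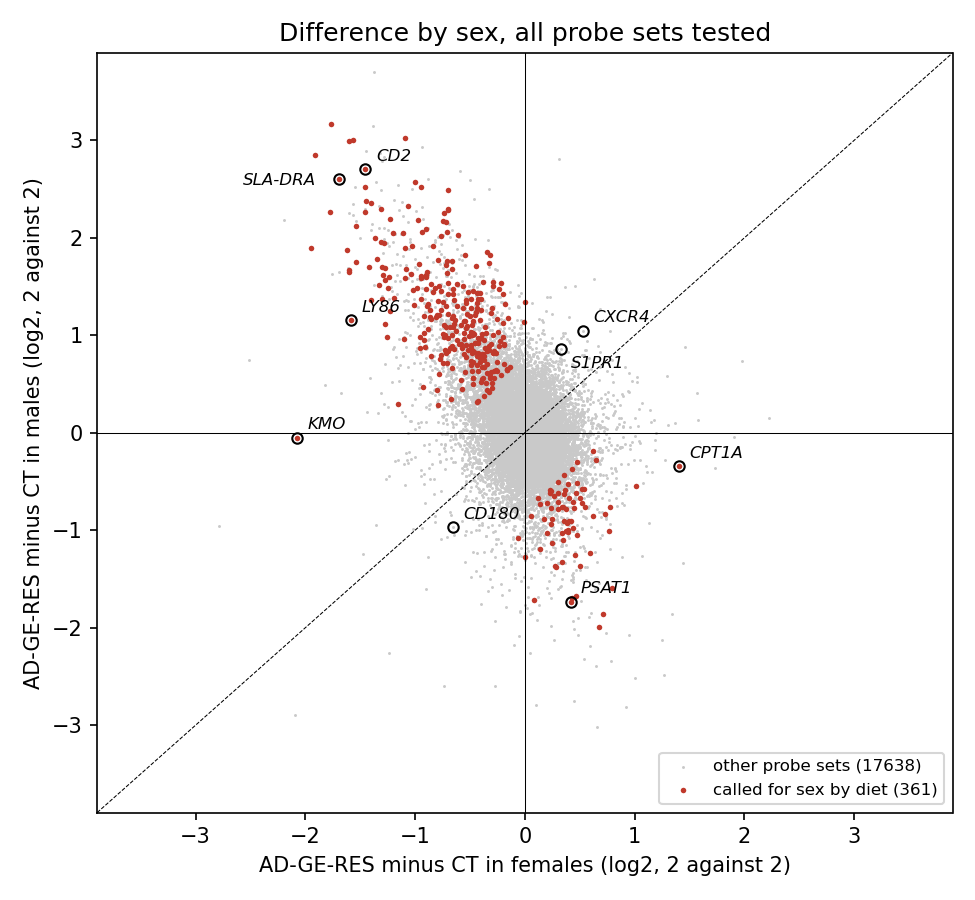
Difference AD-GE-RES minus CT (log2) in females (horizontal axis) and males (vertical axis), 2 against 2 animals each, for 17999 probe sets; red points are the 361 called for the difference between the sexes, ringed points are named genes and the dashed line marks equal differences. Most red points (289) lie above the dashed line, with higher values in males and lower ones in females, while S1PR1, CXCR4 and CD180 have the same sign in both sexes.

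The genes named over both sexes had equal signs in them. All 12 higher and all 12 lower genes had the same sign in males and females, as had 91.9% of the 855 probe sets at an unadjusted p under 0.05, beside 37.3% of all; a small p over both sexes favours equal signs. In males alone S1PR1 rose by 0.86 (SE 0.15, adjusted p = 0.0203), CXCR4 by 1.05 (SE 0.24, adjusted p = 0.0324), MRPL16 by 0.83 (SE 0.15, adjusted p = 0.0219) and HSF2 by 0.86 (SE 0.19, adjusted p = 0.0315), while CD180 fell by 0.97 (SE 0.22, adjusted p = 0.0323). None of these 5 was called in females. They were named from a comparison that held the same males, and the calls in males rested on single arrays, as given above. With the 3'/5' ratio as a covariate, which split with diet in males, none of these 5 was called in males. The differences were then smaller for S1PR1 (0.80, adjusted p = 0.127), CXCR4 (0.80, adjusted p = 0.262) and MRPL16 (0.68, adjusted p = 0.155), and as large or larger for HSF2 (1.04, adjusted p = 0.114) and CD180 (−1.005, adjusted p = 0.153). Over both sexes the ratio moved them little: S1PR1 was at 0.56 and CXCR4 at 0.74 with it, and CD180 at −0.78.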

How the data were processed

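Total RNA of peripheral blood mononuclear cells from 24 pigs was hybridised to Affymetrix porcine arrays, 1 animal for each array. The authors deposited 1 linear intensity per probe set and array. RMA and GCOS are named in the submitters' processing notes, with versions and settings not given in the sources used here. Precision is limited by the number of arrays. Replicates are different animals, numbered in accession order.

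The deposited intensity was taken to log2 here. From 24123 probe sets, 124 controls were removed, and then the dimmest 25% of the remaining 23999 (mean log2 under 3.57), leaving 17999. In the platform annotation 8540 of these had 1 gene symbol, 168 several and 9291 none. The 6033 genes were each represented by the probe set with the highest mean.

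limma 3.58.1 (R 4.3.3) fitted 6 diet means plus a sex term over the 24 arrays (lmFit and eBayes, 17 residual and 3.60 prior degrees of freedom), so that all groups share 1 estimate of the spread. The sexes came from a fit of 12 diet and sex groups (12 residual degrees of freedom). Tests were two-sided, with Benjamini-Hochberg adjustment over all probe sets tested and a threshold of 0.05. The method was tested on simulated data. In each direction the 12 called genes with the largest difference were named, free places going to the smallest p, with the 3 genes of smallest p in each of 37 gene lists eligible beside them. KMO, PSAT1, CD2, SLA-DRA, SLC25A20, LY86 and JAM3, and the highest animal of CXCL8, were chosen after their values were seen. The comparison, the lists and the rule were chosen with earlier results of these data known. Alternatives were other filters, quantile normalization, median centring, log2 of intensity plus 16, array weights, another variance prior, no sex term, only the arrays compared, covariates (3'/5' ratio, 4 cell list means), each sex alone, the mean of a gene's probe sets, and leaving out arrays.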

Additional observations from a re-analysis of the deposited data

Results flagged for a closer look

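The values below stood apart by size. Of 200 groups of 4 animals examined, 16 held an animal farther from the rest than Dixon's 95% criterion allows, which chance gives in about 1 of 20 groups. Single animals that read high were TLR4 in CT 1 (9.28), NAMPT in CT 4 (8.71) and CD83 in AD-GE-RES 1 (11.55). Those that read low were CXCR4 in AD-GE-RES 2 (10.93), RORA in CT 1 (6.84), WARS in CT 3 (8.39), RSAD2 in AD-GE-RES 3 (7.84), GATA3 in AD-GE-RES 1 (8.70), IL7R in CT 4 (8.41) and NAMPT in AD-GE-RES 3 (7.60).

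For list means relative to all arrays, AD-GE-RES 1 was apart for monocyte genes (0.59), autophagy and lysosome genes (0.18) and ubiquitin conjugation genes (−0.18), AD-GE-RES 2 for sterol synthesis genes (0.26), and CT 4 for neutrophil genes (1.91) and adhesion and trafficking genes (−0.18).

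The effect differed between the sexes, by limma's interaction test, for 361 probe sets. Males minus females came to 1.34 for RAB3IP, 2.03 for KMO, 4.30 for SLA-DRA, 4.16 for CD2 and 2.74 for LY86. It was −1.75 for CPT1A, −2.15 for PSAT1, −1.56 for SLC25A20 and −2.14 for JAM3. The 3'/5' ratio differed in the same arrays (−2.16 in males, 1.26 in females), and with it as a covariate 0 were called. Ratio and diet split together in males, so a lost call does not show that a difference shrank. Males minus females was then −2.22 for CPT1A, −1.91 for SLC25A20, −3.25 for JAM3, −1.86 for PSAT1, 1.55 for KMO, 1.13 for RAB3IP, 1.60 for LY86, 1.41 for CD2 and 1.35 for SLA-DRA.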

How the results depend on the processing

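AD-GE-RES against CT called 0 probe sets under every alternative over both sexes. The contrasts of males alone and females alone gave 581 and 1. At an unadjusted p under 0.05 the count of 855 became 413 with only the arrays compared and 4114 in males alone, and ran from 472 to 1889 when 1 array was left out. The sex difference (361 calls) gave 0 with array weights, with the 3'/5' ratio or with 4 cell list means as covariates, and without CT 4 and AD-GE-RES 1; it ran from 0 to 1928 when 1 array was left out and from 268 to 430 under the other filters, scalings and prior. Calls in males (581) were 2 with the ratio and 0 to 2567 leaving out 1 array; calls in females (1) were 0 to 207. AD, AD-GE and AD-RES against CT-GE-RES, with 0 calls, gave 5 without a filter, 5 with the lowest 50% left out, 3 after quantile normalization, 5 with log2 of intensity plus 16, 4 with the other prior, 215 with array weights, 28 with the ratio, 195 with the cell lists, 171 with only the arrays compared, and 0 to 22 leaving out 1 array. The causes were not tested.

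Signs turned for these genes: with the ratio SLA-DRA (−0.0042); in females alone IL7R (−0.30), CAVIN2 (0.10), PSAT1 (0.42), SLA-DRA (−1.70), CD2 (−1.45) and JAM3 (0.46); in males alone CPT1A (−0.34), SLC25A20 (−0.55) and LY86 (1.16). Leaving out 1 array gave LY86 from −0.80 to 0.16 (above 0 without CT 1 or AD-GE-RES 2), SLA-DRA from −0.30 to 1.17 and CD2 from −0.11 to 1.25 (both below 0 without CT 4). Without CT 4 and AD-GE-RES 1, an alternative chosen after seeing the data, CXCL8 was at −0.65, CD83 at −0.13 and SLA-DRA at −0.037. The covariate and leave-one-out fits within each sex were also chosen after seeing the data. Leaving out 1 array within a sex leaves 1 animal in that arm, which is then assumed to vary like the other groups.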
